A study of Mus musculus with 38 samples.

Results

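The genes described here are 10 genes of the endothelial cell surface and its junctions, namely *Cdh5*, *Kdr*, *Pecam1*, *Tie1*, *Tek*, *Cldn5*, *Cd34*, *Emcn*, *Cd93* and *Gja4*. They were chosen by name as endothelial markers, and all 10 were found among the 35976 genes of the bulk time course table, the 37108 genes of the bulk table of factor sets and the 20695 genes of the single-cell table. The study reprogrammed mouse embryonic fibroblasts (MEFs) of E13.5 embryos with retroviral *Jdp2*, *Glis1*, *Esrrb* and *Sall4* (JGES), with or without the morphogen BMP4 at 10 ng/ml, and asked how BMP4 diverts the cells from pluripotency. It comprises 38 samples, of which 2 are single-cell RNA-seq, 23 bulk RNA-seq, 9 ATAC-seq and 4 Cut&Tag, and each condition has 1 sample.

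The single-cell samples are JGES cells of day 7, BMP4+ and BMP4−. The bulk libraries are JGES at day 0 and, BMP4+ and BMP4−, at days 1, 3, 5 and 7. They also include 3 other factor sets at day 7, BMP4+ and BMP4−, which are JGE (no *Sall4*), JGEO (*Oct4* in place of *Sall4*) and JGESO (both). The last libraries are MEFs that received 1 factor only, wild-type SALL4 (SALL4-WT) or SALL4-delN12, collected at days 1, 5, 9 and 11. SALL4-delN12 lacks the 12 N-terminal residues that bind the NuRD corepressor, and neither SALL4 group received BMP4. All JGES cultures were grown in iCD3 medium with vitamin C, TV, bFGF, mLIF, Y27632, CHIR99021, LSD1-HCL and SGC0946, and both SALL4 groups were kept in iCD3. MEFs are a mixed primary culture, and retroviral delivery does not give every cell the same factors. With 1 sample per condition conditions were not tested against each other and p-values are left out, and a difference between conditions cannot be told apart from a difference between libraries.

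Endothelial cells line blood vessels. They sense the growth factor VEGF through KDR (VEGFR2) and the angiopoietins through TEK (TIE2), to which the orphan receptor TIE1 binds. They hold to each other by VE-cadherin (CDH5) in adherens junctions, claudin 5 (CLDN5) in tight junctions, connexin 37 (GJA4) in gap junctions and PECAM1 at the lateral border. CD34 and endomucin (EMCN) are sialomucins of the luminal surface, and CD93 is a C-type lectin-like receptor. Several of these genes are also used outside vessels: *Pecam1* is made by naive pluripotent cells, and *Cd34* by blood progenitors and some fibroblasts.

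In mm10 with the GENCODE vM21 annotation, *Kdr* lies at chr5:75932827-75978458 on the minus strand. The Tie receptor genes are both on chromosome 4, *Tie1* at chr4:118471191-118490061 (minus) and *Tek* at chr4:94739289-94874976 (plus). Of the junction genes, *Cdh5* lies at chr8:104101625-104144511 (plus), *Cldn5* at chr16:18776847-18778262 (plus), *Gja4* at chr4:127311421-127314039 (minus) and *Pecam1* at chr11:106654217-106750628 (minus). The surface genes are *Cd34* at chr1:194938819-194961279 (plus), *Emcn* at chr3:137341067-137432185 (plus) and *Cd93* at chr2:148436640-148443563 (minus).

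The promoters of 4 members are shown because the ATAC-seq data separated them: *Kdr* and *Gja4* had a peak within 2 kb of the start site in all 9 ATAC-seq peak lists, and *Tie1* and *Emcn* in none. Each sequence is from RefSeq (GRCm38.p6, 7 of the 10 members matched), reads 5′ to 3′ on the gene's strand, and covers 250 bases before to 50 after the start. Capitals mark GGAA and its reverse complement TTCC, the core bound by ETS factors, a family with many endothelial members. The positions are chr5:75978406-75978705 (minus) for *Kdr*, chr4:127313990-127314289 (minus) for *Gja4*, chr4:118489800-118490099 (minus) for *Tie1* and chr3:137340828-137341127 (plus) for *Emcn*.
Kdr: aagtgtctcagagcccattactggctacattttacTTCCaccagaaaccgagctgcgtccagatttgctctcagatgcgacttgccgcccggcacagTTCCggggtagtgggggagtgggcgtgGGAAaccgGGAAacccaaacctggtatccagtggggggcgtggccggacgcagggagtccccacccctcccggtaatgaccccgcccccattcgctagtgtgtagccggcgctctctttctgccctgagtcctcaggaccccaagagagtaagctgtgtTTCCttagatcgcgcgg
Gja4: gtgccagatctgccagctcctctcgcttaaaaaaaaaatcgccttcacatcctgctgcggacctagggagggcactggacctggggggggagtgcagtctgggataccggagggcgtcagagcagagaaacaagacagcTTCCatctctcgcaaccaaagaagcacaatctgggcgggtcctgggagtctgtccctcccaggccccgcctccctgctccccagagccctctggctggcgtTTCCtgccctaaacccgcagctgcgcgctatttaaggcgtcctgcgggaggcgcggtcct
Tie1: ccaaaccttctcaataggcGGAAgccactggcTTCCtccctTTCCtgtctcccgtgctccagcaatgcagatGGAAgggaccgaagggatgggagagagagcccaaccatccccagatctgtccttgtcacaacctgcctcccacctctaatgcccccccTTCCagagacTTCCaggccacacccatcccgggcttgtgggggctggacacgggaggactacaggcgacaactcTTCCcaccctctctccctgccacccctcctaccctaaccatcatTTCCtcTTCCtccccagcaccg
Emcn: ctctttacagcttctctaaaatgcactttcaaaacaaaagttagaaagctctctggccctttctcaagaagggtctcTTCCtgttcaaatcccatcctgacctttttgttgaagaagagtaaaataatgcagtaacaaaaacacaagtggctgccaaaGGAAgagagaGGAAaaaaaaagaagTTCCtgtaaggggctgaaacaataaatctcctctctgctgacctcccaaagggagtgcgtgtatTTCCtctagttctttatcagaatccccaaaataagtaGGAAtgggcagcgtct

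Of the promoters shown, *Kdr* had 19 CpG, *Gja4* 16, *Tie1* 7 and *Emcn* 2, where the median of all 32851 promoters was 7. *Tek*, with a peak in 8 lists, had 3 CpG, and *Cd34*, with a peak in 4, had 7. GGAA was found 5 times in *Kdr*, 2 times in *Gja4*, 9 times in *Tie1* and 6 times in *Emcn*, counting both strands. It was also found 5 times in *Cd34* and 2 times in *Tek*, and not in *Cldn5*, which had 12 CpG. These 4 letters occurred in 96.0% of all promoters, with a median of 3. The GATA motif AGATAA (11.2% of all promoters, either strand) was found 1 time, in *Tek*, and the GC box GGGCGG (35.7%) 2 times in *Kdr* and 1 time each in *Gja4* and *Cldn5*. The TATA box TATAAA (13.6%) and the E-box CACGTG (7.15%) were in none of the 7 windows. No motif searched contains another, and a match is a match of letters only.

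The single-cell data show where in the culture these genes were expressed. UMIs, each marking 1 captured RNA molecule, were summed over the cells of each type as the authors had labelled them and divided by all UMIs of those cells, and are given as CPM, the level a gene has in an equal, fixed total of UMIs. The BMP4+ sample has 11335 cells and 269277477 UMIs (median 21205 per cell), and the BMP4− sample 8685 cells and 123159447 UMIs (median 12738). The samples share 2 barcodes. Endothelial was the label of 1453 BMP4+ cells (12.8%) and 507 BMP4− cells (5.84%). The other labels are intermediate state, ParE (taken here for primitive endoderm cell-like cells, PrECLCs, although the abbreviation could also mean parietal endoderm), placenta-like (BMP4+ sample) and pluripotent (BMP4− sample). Brackets after CPM, shares and ratios give exact 95% intervals (Poisson, Clopper-Pearson and conditional binomial), which cover counting error only.

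The endothelial label was checked against 6 endothelial genes that are not among the 10 (*Egfl7*, *Esam*, *Ecscr*, *Plvap*, *Eng* and *Ramp2*). UMIs of at least 3 of them were found in 83.0% of BMP4+ and 64.5% of BMP4− endothelial cells. The label did not take in all such cells, since of the cells with at least 3 of these genes, 53.8% in the BMP4+ sample (of 2240) and 49.0% in the BMP4− sample (of 667) carried it. UMIs of at least 2 of 8 blood markers were found in 21.1% and 25.2% of the endothelial cells. The summed level of all 10 blood markers in endothelial cells was 254 CPM with BMP4 and 596 CPM without, 353 CPM of the latter from the hemoglobin gene *Hba-a1*. The 4 pluripotency markers summed to 296 CPM in BMP4− and 3.72 CPM in BMP4+ endothelial cells, against 6853 CPM in pluripotent cells. UMIs of at least 2 of them were found in 38.1% and 0.275% of the endothelial cells. The other BMP4− types had more, at 350 CPM in the intermediate state and 859 CPM in PrECLCs. The share of cells with at least 2 was also larger in the BMP4− intermediate state, and was 37.3% in BMP4− PrECLCs. These markers were thus not particular to the endothelial cells of the BMP4− sample. The other BMP4+ types had between 16.0 and 22.7 CPM. Primitive endoderm markers summed to 34.4 CPM in BMP4− and 97.0 CPM in BMP4+ endothelial cells, and trophoblast markers to 100.2 and 233 CPM. The part of these shifts in the levels below was not tested beyond the values given without cells that carried blood or pluripotency markers.

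In both samples each of the 10 genes had its highest CPM in the endothelial cells. In the BMP4+ sample the level in endothelial cells was between 10.9 (*Tek*) and 107 (*Cd93*) times that in all other cells together. In the BMP4− sample it was between 3.59 (*Pecam1*) and 134 (*Cd93*) times. Among genes with at least 10 CPM on either side, all 10 members tested were at least 2-fold higher in endothelial cells in the BMP4+ sample, against 5.07% of 8508 genes, and all 7 members tested in the BMP4− sample, against 5.49% of 7300 genes. *Tek*, *Emcn* and *Cd93* did not reach 10 CPM in the BMP4− sample and were also at least 2-fold higher in its endothelial cells. In all other cells together, no member reached 10 CPM in the BMP4+ sample (at most 7.31, *Cldn5*). In the BMP4− sample only *Cldn5* did (11.3). Apart from *Cldn5* in the BMP4− sample, the members thus entered these counts only through the endothelial cells, in which they were higher. The authors' labels were made by clustering cells on their expression, so this enrichment is a description of the labels and not a test of them.

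**Figure D1:**
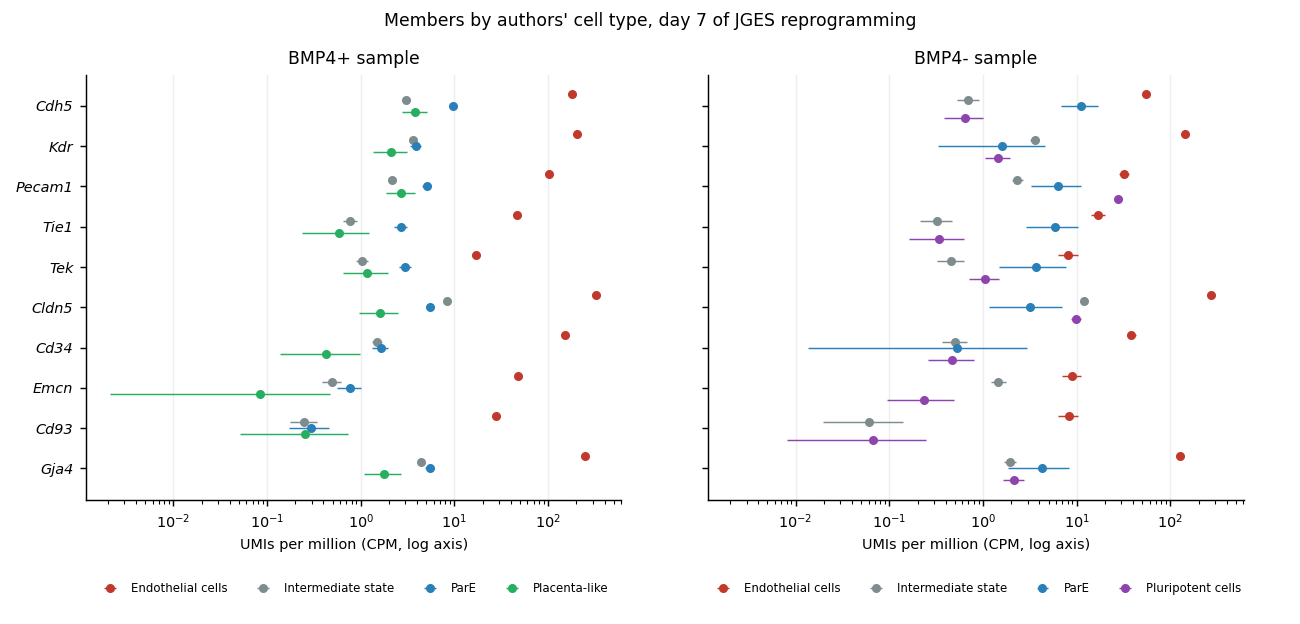
Level of each gene by cell type as labelled by the authors in the BMP4+ (left) and BMP4− (right) single-cell sample of day 7, in CPM on a log axis; points are sums over the cells of a type, lines exact 95% Poisson intervals, and a type with 0 UMIs has no point. Endothelial cells are rightmost for every gene, and in the BMP4− sample the pluripotent cells come close to them for *Pecam1* (27.4 against 31.8 CPM).

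The receptors differed in their levels outside endothelial cells. *Kdr* measured 203 CPM in endothelial cells of the BMP4+ sample, 3.58 in the intermediate state, 3.87 in PrECLCs and 2.10 in placenta-like cells. In the BMP4− sample it measured 141, 3.55, 1.59 and 1.45 CPM in endothelial, intermediate, PrE-like and pluripotent cells. *Tie1* measured 47.0 CPM in BMP4+ and 16.98 CPM in BMP4− endothelial cells. Outside them *Tie1* was highest in PrECLCs in both samples, at 2.67 CPM (2.28 to 3.11) and 5.82 CPM (2.90 to 10.4).

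*Tek* had the smallest share of its UMIs in endothelial cells of any member in the BMP4+ sample. Endothelial cells held 61.9% of its 955 UMIs, PrECLCs 19.2%, and endothelial cells held 13.0% of the UMIs of all genes. Its level was 16.9 CPM in BMP4+ endothelial cells and 2.98 CPM in PrECLCs. In the BMP4− sample it was 8.08 CPM (6.27 to 10.2) in endothelial cells and 3.70 CPM in PrECLCs, where 7 UMIs were counted, with an upper bound of 7.63 CPM. These intervals overlap. A *Tek* UMI was found in 10.8% (8.28 to 13.9) of those endothelial cells and 2.82% (0.773 to 7.06) of those PrECLCs. The endothelial cells were deeper, with a median of 15083 UMIs against 11562 in the PrECLCs. With each cell thinned to equal depth, as described below, the shares were 2.37% (1.23 to 4.10) and 2.11% (0.438 to 6.05). At equal depth the *Tek* shares thus did not separate these cell types.

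Among the junction genes, *Cdh5* measured 179 CPM in BMP4+ and 55.5 CPM in BMP4− endothelial cells. Its next highest level was again in PrECLCs, at 9.75 CPM (8.99 to 10.6) and 11.1 CPM (6.88 to 16.98). *Cldn5* measured 328 and 271 CPM in endothelial cells, and its next level was in the intermediate state, at 8.43 CPM with BMP4 and 12.05 CPM without. *Gja4* measured 249 and 126 CPM in endothelial cells and at most 5.45 CPM in any other type. PrECLCs thus came second for *Cdh5* and *Gja4*, and the intermediate state for *Cldn5*.

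*Pecam1* had UMIs in both endothelial and pluripotent cells of the BMP4− sample. Its level was 31.8 CPM (28.1 to 35.9) in endothelial and 27.4 CPM (upper bound 29.3) in pluripotent cells, and the intervals overlap. Of its 1286 UMIs in this sample, 812 (63.1%) lay in pluripotent and 268 (20.8%) in endothelial cells. In the BMP4+ sample, which has no cells of that label, it measured 103 CPM in endothelial cells, which held 83.8% of its UMIs. Of the 605 pluripotent cells with a *Pecam1* UMI, 11 (1.82%) had UMIs of at least 3 of the 10 genes, so few of them carried several other members. Over all pluripotent cells, a *Cldn5* UMI was found in 13.2%.

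The surface genes had the largest shares in the BMP4+ sample. Endothelial cells held 93.9% of *Cd34*, 92.9% of *Emcn* and 94.1% of *Cd93* UMIs there. *Cd34* measured 152 and 38.1 CPM in endothelial cells with and without BMP4, and *Cd93* 27.8 and 8.19 CPM. *Emcn* measured 47.7 and 8.91 CPM, and in the BMP4− sample 121 of its 203 UMIs (59.6%) were in the intermediate state, at 1.45 CPM. No UMI of *Emcn* or *Cd93* was found in the 142 BMP4− PrECLCs, which by a floor of 3 counts allows up to 1.59 CPM and a share of up to 2.11% of cells with a UMI.

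Shares of cells were compared after each cell was thinned to 4000 UMIs, since the BMP4+ cells were deeper. No cell had fewer. At equal depth a *Cdh5* UMI was found in 41.4% (38.8 to 43.9) of BMP4+ and 15.2% (12.2 to 18.6) of BMP4− endothelial cells, and before thinning in 76.9% and 34.1%. *Cd34* was found in 36.5% and 10.8%, *Pecam1* in 29.4% and 8.88%, and *Tie1* in 18.1% and 5.72% after thinning, where it had been 61.6% and 24.9%, 67.0% and 26.8%, and 46.2% and 16.8%. These 4 genes were found in more than double the share of BMP4+ endothelial cells at equal depth. *Gja4* was found in 40.1% and 24.5% (62.9% and 41.2% before thinning), *Kdr* in 44.0% and 34.5% (71.6% and 59.0%) and *Cldn5* in 48.5% and 44.4% (67.9% and 62.1%). The interval of *Cldn5* in BMP4+ cells, 45.9 to 51.1%, overlaps that in BMP4− cells, 40.0 to 48.8%. The sparser *Emcn* was found in 13.9% and 2.76% (28.9% and 10.8%), *Cd93* in 9.57% and 3.35% (24.2% and 8.48%) and *Tek* in 6.95% and 2.37% (27.7% and 10.8%).

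Free RNA can give UMIs to cells that do not express a gene, so the same shares were read in cells that should lack these genes. In placenta-like cells, which are deeper (median 28906 UMIs, against 21763 in BMP4+ endothelial cells), the thinned shares lay between 0% for *Cd34*, *Emcn* and *Cd93* (0 of 385 cells, which by the same floor allows up to 0.779%) and 1.82% for *Kdr*. In pluripotent cells (median 15444, against 15083 in BMP4− endothelial cells) they lay between 0% for *Cd93* (0 of 1825 cells, which allows up to 0.164%) and 3.62% for *Cldn5*, apart from *Pecam1* at 11.1%. The endothelial share was above these values for each gene but *Pecam1* in the BMP4− sample, whose 8.88% (6.55 to 11.7) overlaps the 11.1% (9.72 to 12.7) of pluripotent cells. In BMP4+ PrECLCs the thinned shares of *Tek*, 1.01% (0.649 to 1.502), *Tie1*, 1.05% (0.683 to 1.55), and *Cdh5*, 3.46% (2.76 to 4.27), overlap those of placenta-like cells, at 0.519% (0.0630 to 1.86) for both receptors and 1.299% (0.423 to 3.005) for *Cdh5*. Over all UMIs, the PrECLC levels of these 3 genes, given above, lay above those of placenta-like cells with intervals apart, at 3.79 CPM (2.76 to 5.07) for *Cdh5*, 0.589 CPM (0.237 to 1.21) for *Tie1* and 1.18 CPM (0.644 to 1.98) for *Tek* in the latter.

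At equal depth, UMIs of several members in 1 cell were rare outside the endothelial label. At least 3 of the 10 genes were found in 48.5% (45.9 to 51.1) of BMP4+ and 21.5% (18 to 25.3) of BMP4− endothelial cells, and in at most 0.590% of any other type. Without thinning these shares were 77.1% and 49.3%, with a median of 6 members per BMP4+ and 2 per BMP4− endothelial cell. All 10 genes were found in 99 BMP4+ and 3 BMP4− endothelial cells. At the other end, 126 (8.67%) and 56 (11.05%) endothelial cells had no UMI of any member.

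Between the endothelial cells of both samples, each member had a higher CPM with BMP4, and the size of the difference depended on the gene. *Emcn* was highest at 5.36-fold (4.25 to 6.85), followed by *Cd34* at 3.99-fold (3.57 to 4.48), *Cd93* at 3.39-fold (2.66 to 4.395), *Cdh5* at 3.23-fold (2.94 to 3.56) and *Pecam1* at 3.23-fold (2.85 to 3.67). The Tie receptors followed at 2.77-fold (2.33 to 3.31) for *Tie1* and 2.09-fold (1.63 to 2.73) for *Tek*. *Gja4* was 1.98-fold (1.86 to 2.11) higher, *Kdr* 1.43-fold (1.35 to 1.53) and *Cldn5* 1.21-fold (1.15 to 1.26). The sialomucin and adhesion genes thus lay above the VEGF receptor and the claudin. Neighbours in this order have overlapping intervals down to *Gja4*, and those of *Gja4*, *Kdr* and *Cldn5* lie apart.

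These ratios stand on a background that is itself shifted. At least 2-fold higher were 7 of the 10 members, against 26.1% of the 7886 genes tested, and at least 2-fold lower none, against 3.64%. Of these 7, *Cdh5*, *Pecam1*, *Tie1* and *Cd34* reached the 10 CPM needed for testing in both samples. *Tek*, *Emcn* and *Cd93* reached it in BMP4+ cells only (8.08, 8.91 and 8.19 CPM without BMP4). Their place in this count and in those below thus rests on the group in which they were higher. The median ratio of all genes tested was 1.43 and that of the members 2.998. Ribosomal protein genes took 29.8% of UMIs in BMP4+ and 43.5% in BMP4− endothelial cells, and between 21.6 and 44.4% over all types, with every BMP4− type above every BMP4+ type. Over totals without ribosomal protein and mitochondrial genes, an alternative chosen after the data had been seen, the median ratio of the members was 2.34. *Kdr* was at 1.12-fold (1.05 to 1.19) and *Cldn5* at 0.943-fold (0.902 to 0.987) over these totals. All genes were also scaled to a median ratio of 1, likewise chosen after the data had been seen. Then 5 of the 10 members (*Emcn*, *Cd34*, *Cd93*, *Cdh5* and *Pecam1*) were at least 2-fold higher, against 9.46% of all genes, with a median of 2.09. *Kdr* was at 0.9997-fold (0.940 to 1.06) and *Cldn5* lower with BMP4, at 0.842-fold (0.805 to 0.881). Under this scaling neither can be called higher with BMP4 relative to other genes. Without the cells that carried 2 or more blood markers, 6 members were at least 2-fold higher, with a median ratio of 2.86. Without the cells that carried 2 or more pluripotency markers, an alternative added after the data had been seen, 1449 BMP4+ and 314 BMP4− cells were left, and 7 members were at least 2-fold higher, with a median ratio of 3.02. *Gja4* was then at 2.06-fold and *Tek* at 1.93-fold.

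The other genes of these pathways did not move as a block in endothelial cells. Of 7 tested VEGF and angiopoietin pathway genes, 3 were at least 2-fold higher with BMP4 and none lower (2 and 1 after scaling to a median ratio of 1). The coreceptors *Nrp2* and *Nrp1* measured 114 against 65.6 and 90.2 against 15.0 CPM, the ligand *Vegfb* 77.1 against 81.4 CPM, and the VEGF receptor *Flt1* 60.4 against 39.7 CPM. Of 11 tested junction partners, 4 were higher and 1 lower (3 and 1 after scaling). The scaffold *Tjp1* measured 198 against 42.8 CPM, β-catenin (*Ctnnb1*) 186 against 134, α-catenin (*Ctnna1*) 113 against 46.4 and the immunoglobulin-like adhesion gene *Esam* 109 against 58.9 CPM. Of 10 endothelial transcription factors, 5 were higher and 1 lower (2 and 3 after scaling). Of the 6 other endothelial genes used to check the label, 2 were higher and 0 lower (0 and 0 after scaling). Of all genes, 26.1% were higher and 3.64% lower, and 9.46% and 9.38% after scaling. *Lmo2* measured 91.8 against 182 CPM, *Sox18* 85.1 against 30.2, *Sox7* 78.6 against 54.9 and *Hhex* 54.2 against 79.3 CPM.

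Over the 8 groups of sample and cell type, the genes with a pattern most like the mean of the 10 members were *Gimap1* (Pearson r of log2(CPM + 1) 0.998), *Scarf1* (0.989), *Fgd5* (0.986), *Rasip1* (0.983) and *Bcl6b* (0.982), out of 9773 genes. *Rasip1* measured 53.5 and 22.7 CPM in endothelial cells with and without BMP4 and at most 4.28 CPM elsewhere. The points share the libraries and the labels, and the correlation is a description.

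The bulk time course shows when the genes appeared in JGES cultures. Values are FPKM, read fragments scaled by transcript length and library size, and a difference is of log2(FPKM + 1) with a size of at least 1 (2-fold) called among genes with at least 1 FPKM in either library. In bulk samples, fewer cells of a type and less RNA per cell cannot be told apart. At day 0, 2 of the 10 members reached 1 FPKM, *Kdr* at 3.68 and *Cd34* at 2.69 FPKM, and *Tie1*, *Tek*, *Cldn5* and *Cd93* were listed at 0. The number of reads behind these values is unknown.

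*Kdr* was present early and changed in order between the conditions. Without BMP4 it measured 5.10, 15.1, 12.3 and 14.0 FPKM at days 1, 3, 5 and 7. With BMP4 it measured 7.54, 4.04, 11.4 and 11.7 FPKM. At day 3 it was lower with BMP4 by 3.73-fold (log2 difference −1.67), and at days 5 and 7 the conditions were within 0.24 of each other on the log2 scale.

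The Tie receptors came later. *Tie1* was at most 0.356 FPKM up to day 3 in either condition, then 1.95 and 1.87 FPKM without and 3.42 and 6.42 FPKM with BMP4 at days 5 and 7. At day 7 it was 3.44-fold higher with BMP4 (log2 difference 1.37). *Tek* measured 0.413, 0.807, 1.402 and 2.10 FPKM without and 0.297, 0.379, 1.41 and 1.94 FPKM with BMP4, and no day separated the conditions by the size called. By the size called, *Tie1* was higher with BMP4 at day 7 and *Tek* was not.

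Each junction gene followed its own course. *Cdh5* measured 0.482, 0.770, 8.26 and 4.72 FPKM at days 1, 3, 5 and 7 without BMP4 and 0.693, 1.33, 8.91 and 12.6 FPKM with it, so the conditions parted between days 5 and 7 (2.67-fold at day 7, log2 difference 1.25). *Cldn5* measured 2.29, 22.7, 41.4 and 29.6 FPKM without BMP4 and 0, 6.30, 23.7 and 31.2 FPKM with it. It was lower with BMP4 at day 3 (3.60-fold, log2 difference −1.70) and had come level at day 7 (log2 difference 0.07). *Gja4* measured 11.6, 16.6, 13.1 and 19.0 FPKM without BMP4 and 6.02, 5.72, 19.7 and 27.5 FPKM with it, and was 2.91-fold lower with BMP4 at day 3. *Pecam1* measured 0.501, 0.355, 9.87 and 18.9 FPKM without BMP4 and 0.0899, 0.917, 3.68 and 10.9 FPKM with it. It was the member whose day 7 level was furthest below the BMP4− level, by 1.73-fold (log2 difference −0.74).

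*Cd34* showed the largest difference of any member at day 7. It measured 0.620, 0, 2.64 and 1.45 FPKM at days 1, 3, 5 and 7 without BMP4, and 0.133, 0.409, 5.73 and 12.2 FPKM with it, 8.38-fold higher at day 7 (log2 difference 2.43). *Emcn* measured 0.440, 0.702, 1.28 and 0.773 FPKM without BMP4, and was listed at 0 with BMP4 until day 7, at 2.61 FPKM. *Cd93* was at most 0.237 FPKM without BMP4 at any day, and 0.947 and 1.163 FPKM at days 5 and 7 with BMP4.

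**Figure D2:**
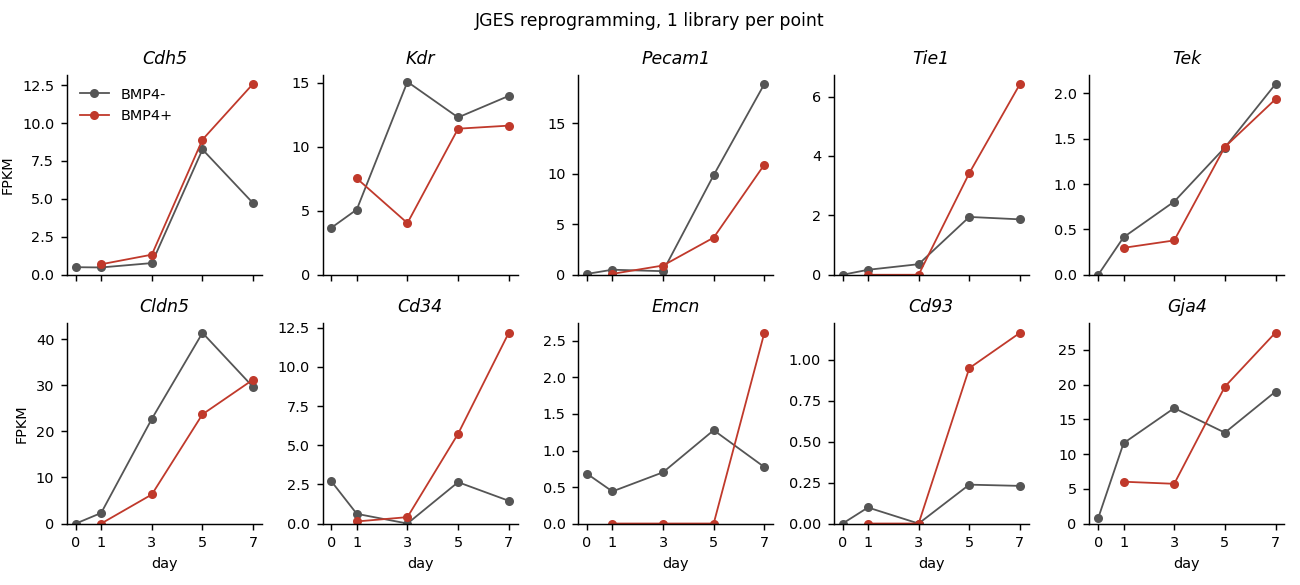
FPKM of each gene by day of JGES reprogramming without BMP4 (grey) and with BMP4 (red), 1 library per point and a separate linear axis for each gene; day 0 is shown with the BMP4− line. *Cdh5*, *Tie1* and *Cd34* are higher with BMP4 at day 7, the latter 2 also at day 5 by less than the size called, while *Cldn5* and *Kdr* are lower with BMP4 at day 3 and alike at day 7.

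The members called were lower with BMP4 at days 1, 3 and 5 and higher at day 7, and apart from *Emcn* they were different genes. At day 1 none was at least 2-fold higher and 1 (*Cldn5*) lower, against 3.75% of all genes higher and 5.72% lower. At day 3 none was higher and 3 (*Kdr*, *Cldn5* and *Gja4*) lower, against 6.81% and 8.99%, and at day 5 none was higher and 2 (*Pecam1* and *Emcn*) lower, against 8.78% and 13.2%. At day 7, 4 (*Cdh5*, *Tie1*, *Cd34* and *Emcn*) were higher and none lower, against 10.3% and 13.8%. The counts of 1 and 2 at days 1 and 5 are too small to set apart from the shares of all genes. By any size, 6 of the 10 members were higher with BMP4 at day 5. The median difference of the members went from −0.34, −0.41 and 0.05 to 0.66, where the medians of all genes were −0.02, −0.09, −0.18 and −0.14. The members with at least 1 FPKM in either library numbered 3, 4, 9 and 10 at the 4 days. Of those called, *Cldn5* at day 1 and *Emcn* at day 5 reached it without BMP4 only, and *Emcn* at day 7 with BMP4 only. Their place in these counts thus rests on the condition in which they were higher.

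Markers of other cell types moved as well. The 4 pluripotency genes were all at least 2-fold lower with BMP4 at days 3, 5 and 7, and 6, 8 and 5 of 8 mural and mesenchymal genes higher, the latter summing to 104 against 364 FPKM at day 3 and 103 against 730 FPKM at day 7. Trophoblast markers summed to 39.3 FPKM without and 110 FPKM with BMP4 at day 3, and 84.5 and 249 FPKM at day 7. At day 7, 3 of 6 primitive endoderm genes were higher, and the 10 blood markers summed to 26.7 FPKM without and 12.1 FPKM with BMP4. The part of these shifts in the members' differences was not tested. In the single-cell samples of the same day, summed over all cells, *Cd34* was 6.85-fold and *Cdh5* 5.98-fold higher with BMP4. *Kdr*, *Pecam1* and *Tek* were higher by 2.37-fold, 1.52-fold and 3.03-fold, whereas the bulk libraries gave log2 differences of −0.24, −0.74 and −0.08. With bulk libraries scaled to an equal median ratio these were −0.12, −0.62 and 0.01, so *Tek* was then level. The single-cell ratios are over unscaled totals, in which ribosomal protein genes took a larger share in every BMP4− type. The part of this share in the ratios over all cells was not tested.

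At day 7 the pathway lists held genes that differed in each direction, where 10.3% of all genes were higher and 13.8% lower. Of 12 tested VEGF and angiopoietin pathway genes 3 were at least 2-fold higher with BMP4 and 1 lower, with *Vegfa* at 105 against 94.7 FPKM, *Vegfb* at 58.0 against 57.1, *Nrp2* at 42.6 against 23.9 and *Flt1* at 12.8 against 1.07 FPKM. Of 15 tested junction partners 2 were higher and 2 lower, with *Gja1* (connexin 43) at 340 against 155 FPKM, *Ctnnb1* at 243 against 223, *Ctnna1* at 68.3 against 73.9 and *Ctnnd1* (p120-catenin) at 45.2 against 38.1 FPKM. Of 8 tested endothelial transcription factors 3 were higher and 3 lower. The highest of them were *Lmo2* at 10.6 against 37.8 FPKM, *Sox18* at 36.0 against 18.8, *Gata2* at 31.1 against 3.50 and *Sox7* at 13.8 against 5.25 FPKM. Of the 6 other endothelial genes 2 were higher and none lower.

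Over the 17 libraries of the time course table, *Tie1* followed the other members most closely (Pearson r of log2(FPKM + 1) with the mean of the other 9, 0.931), then *Cldn5* (0.851) and *Pecam1* (0.776), and *Cd34* least (0.036). The genes most like the mean of the 10 were *Pfkfb3* (r = 0.964), a regulator of glycolysis, *Cubn* (0.925), *Arid3b* (0.902), *Dgkd* (0.897) and *Tmc7* (0.894) among 12344 genes. *Pfkfb3* ranged from 3.41 to 27.8 FPKM and *Cubn* from 0.0309 to 29.1 FPKM. The libraries share their starting cells and fall into JGES and SALL4 cultures, so the correlation is a description.

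The factor sets give the BMP4 difference at day 7 in cells that had received other factors, with 1 library on each side. JGE cells without BMP4 had little *Cdh5*, *Pecam1* or *Tie1*, at 0.0935, 0.0809 and 0 FPKM. With BMP4 these were 6.77, 1.94 and 2.60 FPKM. *Cldn5* measured 10.9 FPKM without and 92.6 FPKM with BMP4, *Gja4* 1.46 and 23.6 FPKM, and *Cd34* 2.55 and 10.1 FPKM. *Cldn5* was 8.46-fold, *Gja4* 16.2-fold and *Cd34* 3.97-fold higher. *Kdr* measured 10.9 and 18.7 FPKM, *Tek* 0.401 and 1.20, *Cd93* 0.522 and 0.506, and *Emcn* 3.92 and 2.13 FPKM, none past the size called. In JGE, 6 of the 9 members tested were at least 2-fold higher with BMP4 and none lower, against 4.28% and 4.78% of all genes. Of these 6, *Cdh5*, *Pecam1* and *Tie1* reached the 1 FPKM needed for testing with BMP4 only. Their place in this count thus rests on the library in which they were higher. The median difference of the members was 1.55, against −0.05 for all genes.

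In JGEO cells 6 of the 9 members tested were again higher and none lower, against 2.26% and 1.95% of all genes. Of these 6, *Cdh5*, *Tie1* and *Gja4* reached 1 FPKM with BMP4 only. *Cdh5* measured 0.0154 FPKM without and 2.37 FPKM with BMP4, *Tie1* 0.112 and 1.65, and *Kdr* 3.25 and 9.34 FPKM. *Cldn5* measured 8.56 and 40.2 FPKM, *Gja4* 0.405 and 7.04, and *Pecam1* 2.11 and 5.27 FPKM. The remaining 4 were *Cd34* (1.54 and 3.53 FPKM), *Emcn* (1.39 and 2.38), *Tek* (1.94 and 2.15) and *Cd93* (0.140 and 0.395), all higher with BMP4 and below the size called. The median difference of the members was 1.13, against 0.04 for all genes.

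JGESO cells had more *Gja4* and *Cldn5* without BMP4 than JGE or JGEO cells. *Gja4* measured 16.5 FPKM without and 30.2 FPKM with BMP4, and *Cldn5* 25.1 and 21.3 FPKM. *Cdh5* measured 1.82 and 5.77 FPKM, *Kdr* 1.71 and 4.46, *Tie1* 1.75 and 4.64, and *Cd34* 0.868 and 4.16 FPKM, these 4 at least 2-fold higher with BMP4. None was lower, with 7 members tested, against 5.29% higher and 3.52% lower of all genes. Of the 4, *Cd34* reached 1 FPKM with BMP4 only. *Pecam1* measured 3.85 and 4.90 FPKM, *Tek* 0.290 and 0.173, *Cd93* 0.114 and 0.246, and *Emcn* 0.821 FPKM and listed at 0. The median difference was 0.56, against 0.01 for all genes.

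**Figure D3:**
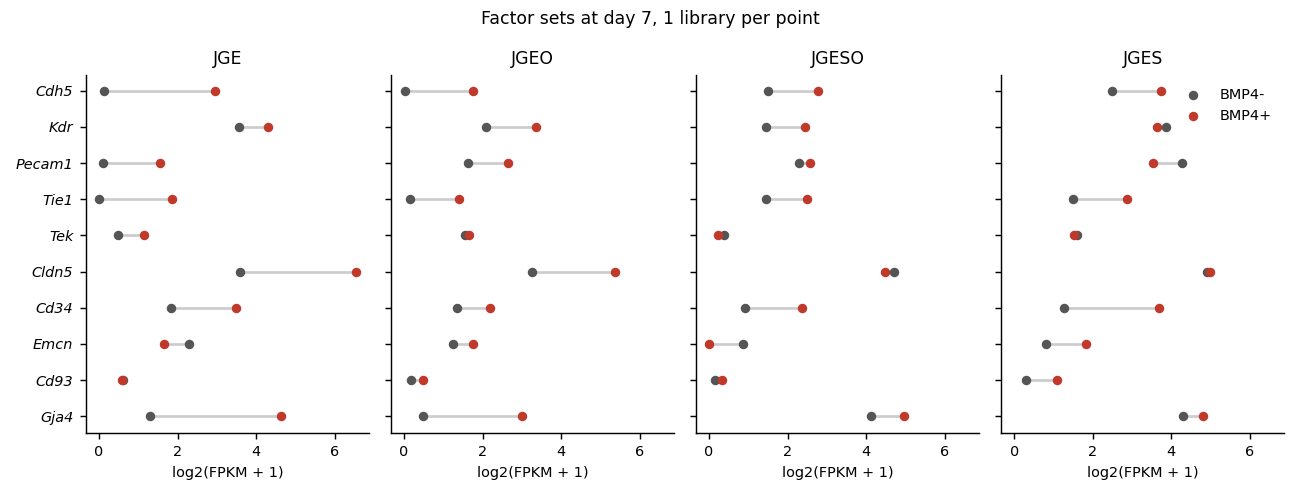
Level of each gene at day 7 in 4 factor sets without BMP4 (grey) and with BMP4 (red), as log2(FPKM + 1), 1 library per point; JGES is from the same table as the other sets. In JGE and JGEO cells *Cdh5*, *Tie1*, *Cldn5* and *Gja4* are far apart, and in JGES cells *Cldn5* is alike in both conditions and *Pecam1* lower with BMP4.

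*Cdh5* and *Tie1* were at least 2-fold higher with BMP4 in each of the 4 sets at day 7. With libraries scaled to an equal median ratio, *Tie1* and *Kdr* in JGESO lay just below that size (log2 differences 0.9998 and 0.973). Of the other members, *Tek* and *Cd93* were so in none, and the rest in some: *Cd34* in JGES, JGE and JGESO, *Cldn5*, *Gja4* and *Pecam1* in JGE and JGEO, *Kdr* in JGEO and JGESO, and *Emcn* in JGES. Both sets with *Sall4* had higher BMP4− levels of *Cdh5*, *Tie1* and *Gja4* (at least 1.82, 1.75 and 16.5 FPKM) than both sets without (at most 0.0935, 0.112 and 1.46 FPKM), as of *Cldn5* (at least 25.1 against at most 10.9 FPKM) and *Pecam1* (3.85 against 2.11 FPKM). *Cd34* and *Emcn* were lower in both sets with *Sall4* (at most 1.42 and 0.821 FPKM) than in those without (at least 1.54 and 1.39 FPKM), and *Kdr*, *Tek* and *Cd93* overlapped. Without BMP4, primitive endoderm markers summed to 71.3 and 374 FPKM in JGES and JGESO, against 25.5 and 46.2 FPKM in JGE and JGEO. Pluripotency markers summed to 775 and 382 against 14.0 and 292 FPKM, and trophoblast markers to 82.4 and 264 against 42.8 and 32.1 FPKM. Mural and mesenchymal markers and blood markers overlapped. The part of these markers in the levels was not tested. Whether the BMP4 difference itself differs between sets was not tested. Markers of other cell types moved differently in each set. The mural and mesenchymal genes summed to 666 FPKM without and 327 FPKM with BMP4 in JGE (3 of 8 at least 2-fold lower), 330 and 189 FPKM in JGEO (1 of 7 lower) and 427 and 900 FPKM in JGESO (4 of 7 higher). Trophoblast markers went from 264 to 467 FPKM in JGESO (2 of 5 higher), with none past the size called in JGE and JGEO. Their part in the members' differences was not tested. The endothelial transcription factors moved with the members in JGE, where 7 of 9 were at least 2-fold higher and none lower, and in JGEO, where 4 of 7 were, but in JGESO none of 9 was higher or lower. The highest factors of JGE were *Lmo2* (39.1 and 54.6 FPKM, below the size called), *Gata2* (10.3 and 51.7), *Sox18* (1.75 and 34.6) and *Sox7* (0.943 and 5.64 FPKM). Of VEGF and angiopoietin pathway genes 1 of 11 was higher in JGE, none of 7 in JGEO, and 1 higher and 1 lower of 9 in JGESO. Of 15 junction partners 1 was higher in each of the 3 sets and none lower. Of the other endothelial genes used to check the label, 1 of 6 was higher in JGE, 1 of 5 in JGEO and 0 of 6 in JGESO, and none lower. Their median differences were 0.70, 0.24 and −0.10, so in JGESO they did not rise with the members called. The shares of all genes higher in JGE, JGEO and JGESO were 4.28%, 2.26% and 5.29%.

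In MEFs with a form of SALL4 alone, *Tie1*, *Emcn*, *Cd93* and *Gja4* stayed below 0.5 FPKM in all 8 libraries. *Cd34* was the highest member of SALL4-WT cells at days 1, 5 and 9, at 39.5, 6.27 and 8.73 FPKM, with 2.35 FPKM at day 11. In SALL4-delN12 cells it measured 6.38, 1.68, 3.36 and 0.710 FPKM, below SALL4-WT at every day and at least 2-fold lower at days 1, 5 and 9 (log2 differences −2.46, −1.44 and −1.157). *Kdr* measured 1.74, 0.708, 1.22 and 2.52 FPKM in SALL4-WT and 0.382, 0.458, 0.505 and 0.371 FPKM in SALL4-delN12 cells, also lower at every day and by more than the size called at day 11 (−1.36).

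Other members were higher with the deleted form. *Pecam1* measured 0.149, 0.412, 0.270 and 0.325 FPKM in SALL4-WT and 0.522, 4.24, 1.11 and 1.25 FPKM in SALL4-delN12 cells, and *Tek* 0.0273, 0.184, 0.0781 and 0.134 against 0.587, 0.902, 1.99 and 1.29 FPKM. Both were higher in SALL4-delN12 at all 4 days, *Pecam1* at least 2-fold at day 5 (log2 difference 1.89) and *Tek* at days 9 and 11 (1.47 and 1.01). *Cldn5* turned with time, at 2.54, 0.189, 0.297 and 0.569 FPKM against 0.239, 2.08, 7.02 and 0.955 FPKM, with log2 differences of −1.51 at day 1, 1.37 at day 5 and 2.63 at day 9. *Cdh5* measured 10.8, 2.73, 2.39 and 0.898 against 9.54, 3.68, 5.05 and 1.83 FPKM, below the size called at each day.

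**Figure D4:**
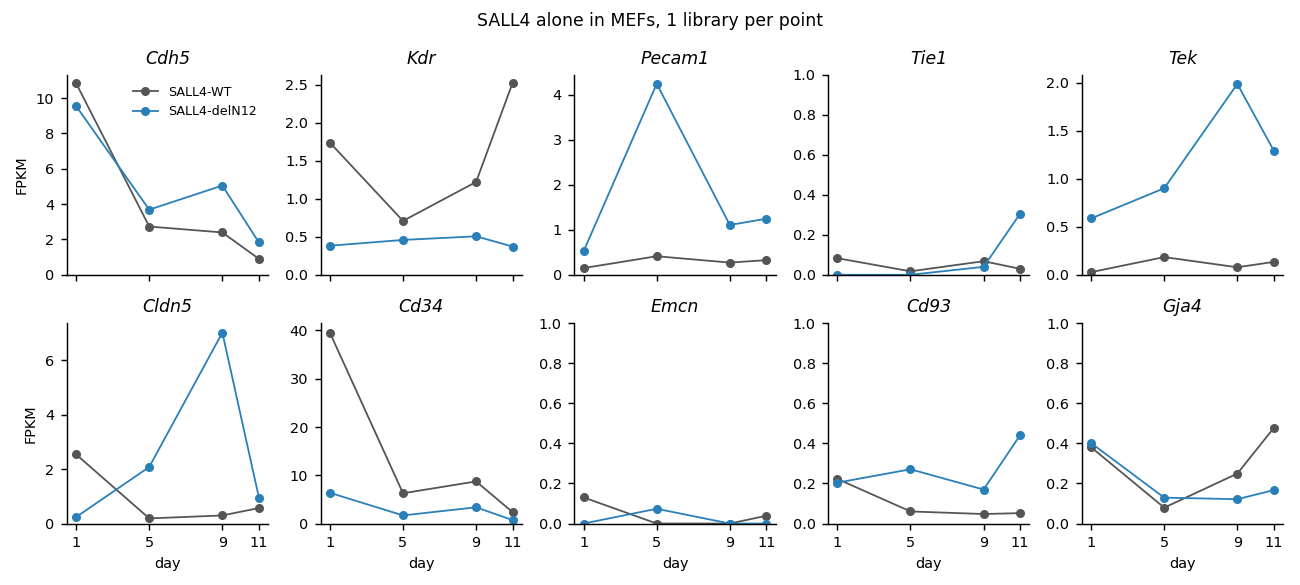
FPKM of each gene in MEFs that received SALL4-WT (grey) or SALL4-delN12 (blue), at days 1, 5, 9 and 11, 1 library per point and a separate linear axis for each gene, drawn to at least 1 FPKM. *Kdr* and *Cd34* are lower and *Pecam1* and *Tek* higher with SALL4-delN12 at every day.

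In counts, SALL4-delN12 against SALL4-WT gave 0 members at least 2-fold higher and 2 lower at day 1 (4.18% and 5.63% of all genes), and 2 higher and 1 lower at day 5 (4.67% and 5.19%). It gave 2 higher and 1 lower at day 9 (6.09% and 5.75%) and 1 higher and 1 lower at day 11 (6.55% and 6.58%). The members with at least 1 FPKM in either library numbered 4, 4, 6 and 5. Of those called, *Cd34* reached 1 FPKM with both forms at days 1, 5 and 9. The others reached it only with the form in which they were higher, on which their place in these counts rests. The median differences of the members were −0.14, 0.18, 0.08 and 0.33. The blood markers moved with the form, summing to 87.4, 31.0, 28.1 and 50.8 FPKM in SALL4-WT and 98.0, 186, 245 and 253 FPKM in SALL4-delN12 cells at days 1, 5, 9 and 11. Trophoblast markers differed from day 1 on, at 109, 110, 144 and 132 FPKM in SALL4-WT and 646, 638, 660 and 517 FPKM in SALL4-delN12 cells. Mural and mesenchymal markers summed to 1154 FPKM in SALL4-WT and 2485 FPKM in SALL4-delN12 cells at day 1, where *Cd34* was lower with SALL4-delN12. At day 11, 5 of 6 tested blood markers and 5 of 6 primitive endoderm genes were at least 2-fold higher with SALL4-delN12. The part of these shifts in the members' levels was not tested. Of 12 VEGF and angiopoietin pathway genes tested at day 11, 1 was higher and 2 lower, and of 16 junction partners 3 were higher and 1 lower. Of 7 endothelial transcription factors 2 were higher and none lower.

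The ATAC-seq peak lists, which mark accessible chromatin, and the Cut&Tag lists, which mark bound SALL4 or acetylated H3K27, cover the MEFs and SALL4 cultures only. *Kdr*, *Pecam1* and *Gja4* had a peak within 2 kb of a start site in all 9 ATAC-seq lists, MEFs included. In MEFs the *Kdr* peak at chr5:75978048-75978717, over the promoter printed above, had the highest score of any member (765.72), with *Cd34* at 513.43 and *Gja4* at 498.81. The score is that of the MACS peak caller, where a higher score is a lower p-value. After MEFs, the highest *Kdr* score was between 53.35 and 290.03, and *Gja4* had scores between 101.87 and 368.05. In the SALL4-WT lists *Kdr* scored 191, 290, 137 and 164 at days 1, 5, 9 and 11, and in the SALL4-delN12 lists 67.4, 53.4, 94.6 and 64.5, lower at each day. Over all peaks within the gene, its highest score was higher in SALL4-delN12 at days 1 (239.5 against 213.09) and 9 (201.1 against 137.14) and lower at days 5 and 11. Scores also move with the depth of a library, which is unknown.

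Among the others, *Tek* lacked a peak in the SALL4-WT list of day 5 and *Cldn5* in the SALL4-delN12 list of day 1, and both had one in the other 8 lists. *Cd34* had one in 4 lists, and *Cdh5* in 1 (SALL4-WT at day 1, score 51.7). *Tie1*, *Emcn* and *Cd93* had none in any list at this distance. Accessible sites lay elsewhere in some of these genes: *Cdh5* had between 2 and 7 peaks within the gene in each ATAC-seq list, with a highest score of 716 (SALL4-WT at day 5), and *Cd93* 1 or 2. Between 4 and 6 of the 10 members had a promoter peak in a list, against between 60.3 and 68.5% of 21864 protein-coding genes.

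At day 6, SALL4 was found at the promoters of *Pecam1* (score 187.65), *Kdr* (95.07) and *Cd34* (73.17) in SALL4-WT cells, and of *Tek* (329.27) and *Pecam1* (92.37) in SALL4-delN12 cells. These are 3 and 2 of the 10 members, against 54.2% and 40.8% of all genes. H3K27ac was found at 1 member in SALL4-WT cells (*Kdr*, 120.11) and at 4 in SALL4-delN12 cells (*Cd34*, 128.91, *Pecam1*, 121.21, *Kdr*, 110.28, and *Cldn5*, 85.74), against 49.5% and 58.8%. The H3K27ac lists hold 19841 and 45599 peaks, so that list sizes differ as well. Within the gene, an H3K27ac peak was found at 4 members in SALL4-WT and 6 in SALL4-delN12 cells. *Cdh5* (highest scores 85.46 and 389.35), *Pecam1* (107.01 and 202.1), *Tek* (209.55 and 374.76) and *Kdr* (120.11 and 110.28) had one in both. *Pecam1* thus had a SALL4 promoter peak in both lists, with the higher score in SALL4-WT, and *Cldn5* had no SALL4 peak in either. The promoter peaks of *Kdr* and *Cd34* in SALL4-WT scored below 100, and both genes had SALL4 peaks within the gene in both lists, with highest scores of 240.63 and 142.08 for *Kdr* and 82.84 and 83.7 for *Cd34* in SALL4-WT and SALL4-delN12. *Tek* likewise had SALL4 peaks within the gene in both, at 576.99 and 506.79.

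**Figure D5:**
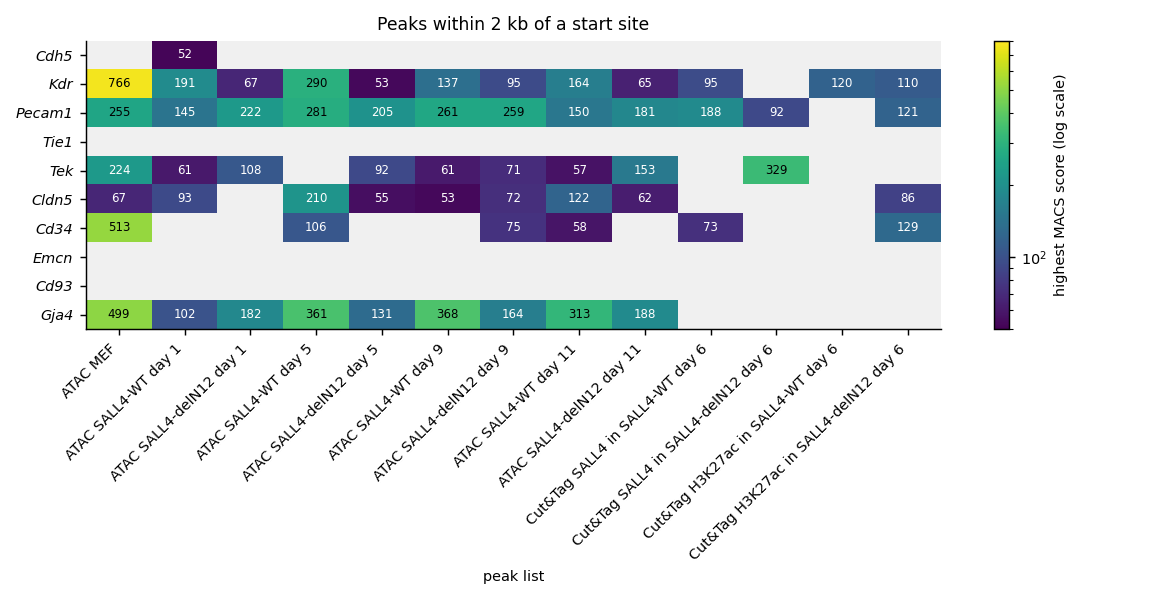
Highest MACS score of any peak within 2 kb of a start site of each gene (vertical axis) in the 9 ATAC-seq and 4 Cut&Tag peak lists (horizontal axis), with the score printed and coloured on a log scale and grey where no peak was listed. *Kdr*, *Pecam1* and *Gja4* are filled in every ATAC-seq column, and *Tie1*, *Emcn* and *Cd93* in none.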

How the data were processed

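The 10 genes and the gene lists were chosen with earlier results of these data known. The authors ran STARsolo on the scRNA-seq reads (mm10, GENCODE vM21) and deposited raw UMI counts with a cell type per cell, and 10749 columns of other work in that table were not used. For bulk RNA-seq, the authors deposited FPKM in 2 tables, and the submitters' processing notes name Trim Galore 0.6.4, HISAT2 2.2.1 and StringTie 2.2.1. FPKM were compared within a table, and JGES values are from the time course table. A second copy of both JGES libraries of day 7 in the table of factor sets had a median ratio of 0.978 and 0.975 to the first. Among genes with a median over 50 FPKM, 1 of 1205 and 5 of 1383 are listed at 0 in some library. The authors deposited peak lists with a MACS score per peak (Bowtie2 2.4.5, SAMtools 1.16.1, MACS 1.4.2), and Cut&Tag replicates had been merged before peaks were called. Filters on cells were those of the authors, and no doublet caller was run.

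Here, differences of log2(FPKM + 1), summed UMIs in CPM and peaks within 2 kb of GENCODE start sites were computed with Python 3.11.15, numpy 2.4.6, pandas 2.3.3 and scipy 1.17.1. The code for FPKM differences and for intervals of UMI ratios had been tested on simulated data. That for peaks and thinning had not. Named genes are the 10 members, the 5 genes most like their mean in each data type (at least 5 FPKM or 10 CPM in any group) and, per list, up to 4 genes with the highest level. Alternatives were a pseudocount of 0.1, scaled libraries, a filter on low FPKM, other cell selections and other peak limits.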

Additional observations from a re-analysis of the deposited data

Results flagged for a closer look

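The following members had BMP4 differences of opposite sign between days or factor sets, or SALL4 form differences of opposite sign between days, with 1 library on each side, and none of these changes of sign was tested. Values are differences of log2(FPKM + 1). In JGES cells, *Pecam1* was at 0.50 on day 3 and −1.22 on day 5. *Cd34* was at −0.52 on day 1 and 2.43 on day 7, *Emcn* at −1.19 on day 5 and 1.03 on day 7, and *Gja4* at −1.39 on day 3 and 0.56 on day 5. At day 7, *Pecam1* was at −0.74 in JGES and 1.45 in JGE cells, and *Emcn* at 1.03 in JGES and −0.86 in JGESO cells, in which it is listed at 0 with BMP4. For SALL4-delN12 minus SALL4-WT, *Cldn5* was at −1.51 on day 1 and 2.63 on day 9.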

How the results depend on the processing

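No paired analysis was possible because the conditions compared share 1 replicate number only, and no replicate could be left out. Days and factor sets were not used as pairs. The cause of the changes below was not tested. With a pseudocount of 0.1, at which low members weigh more, 5 members were at least 2-fold lower with BMP4 at JGES day 1 (median −1.20), 2 higher and 5 lower at day 3 (−1.22), and 2 higher at day 5. At day 7, 5 members were higher in JGES, 7 in JGE (median 2.51) and 8 in JGEO, and 1 member was lower in JGESO. SALL4-delN12 against SALL4-WT gave 2 higher and 4 lower at day 1 (median −0.53), 4 higher at day 5 (0.61), 4 higher and 2 lower at day 9 (0.44), and 4 higher and 3 lower at day 11 (0.80). With libraries scaled to an equal median ratio, 1 member (*Cd34*) was higher at JGES day 5 (median 0.19), 2 in JGESO (without *Tie1* and *Kdr*), and 2 lower with SALL4-delN12 at day 11. This scaling moved the median of all genes by over 0.1 at JGES day 5 (−0.18 to −0.01) and day 7 (−0.14 to −0.02) and not in the other 9 comparisons. Over members with at least 1 FPKM, the medians were −0.84 and −1.53 at JGES days 1 and 3, 1.01 in JGESO, and −1.25, 0.85, 0.78 and 0.58 for SALL4-delN12 at days 1, 5, 9 and 11. Over peaks with a score of at least 100, members with a promoter peak numbered 3, 3 and 3 in the ATAC-seq lists of SALL4-WT days 1 and 9 and SALL4-delN12 day 11, 2 and 2 in those of SALL4-delN12 days 5 and 9, and 1 and 1 in the SALL4 Cut&Tag lists. In endothelial cells, *Kdr* turned to 0.9997-fold and *Cldn5* to 0.842-fold with BMP4 when scaled to a median ratio of 1. Over totals without ribosomal protein and mitochondrial genes, *Cldn5* turned to 0.943-fold and *Kdr* was at 1.12-fold. Both alternatives, and leaving out cells with pluripotency markers, were chosen after seeing the data. The number of members at least 2-fold higher lay between 5 and 8 of 10 over all 7 alternatives, and the median ratio between 2.09 and 3.31. A promoter of 500 bp to each side moved no count of members by over 1.5 times. Precision is limited by 1 library per condition throughout, and for *Tek*, *Emcn* and *Cd93* in BMP4− endothelial cells by 68, 75 and 69 UMIs.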
